A study of Mus musculus with 8 samples.

Results

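The genes of glucose uptake, glycolysis, pyruvate entry into mitochondria and the pentose phosphate pathway were described in Tregs, regulatory CD4+ T cells that hold immune responses in check. A list of 33 genes was matched by symbol to probe sets annotated to 1 gene each, and of several the brightest was kept, by its mean over the 8 arrays. This gave 28 measured genes of 19937 tested on the array. The other 5, Gpi1, Gapdh, Eno1, G6pdx and Mpc2, had no probe set with that symbol alone and were not analysed here. For Gapdh, 11 probe sets carried its symbol together with those of other genes.

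Recipient mice were CD3ε-/-, so they lack part of the T cell receptor complex (TCR) and form no T cells of their own. They were lethally irradiated and received bone marrow from wild-type donors (WT chimeras, 4 arrays) or from donors labelled IIKO (IIKO chimeras, 4 arrays), so both groups share the CD3ε-/- host. The labels describe the Tregs of IIKO chimeras as lacking contact of their TCR with MHC class II in the periphery, and do not name the disrupted class II gene or the cells of the host that remain. After 28 days, cells positive for CD4, TCRβ and CD25 were taken from spleen and peripheral lymph nodes by magnetic beads and sorting. The mice are labelled C57BL/6, aged 6 to 8 weeks, and each array used 100 ng of RNA. The labels call the arrays biological replicates and do not give the number of mice in each, so the tests measure the spread between samples, whatever its source.

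Glucose enters T cells through facilitative transporters and is trapped by hexokinase. Glycolysis splits it to pyruvate, which lactate dehydrogenase turns into lactate or the pyruvate dehydrogenase complex sends into the citric acid cycle. The pentose phosphate pathway branches off after hexokinase and yields NADPH and ribose. TCR and costimulatory signals raise glucose uptake and glycolysis in activated T cells, through mTOR, MYC and HIF-1. Tregs are known to lean more on mitochondrial oxidation than effector T cells do.

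The sorted cells carried the transcripts of their gate and lineage on every array. Foxp3, the transcription factor that defines Tregs, lay between 10.53 and 10.81 on the log2 scale over the 8 arrays. Il2ra, which encodes CD25, lay between 11.95 and 12.25, Cd4 between 10.57 and 10.84 and Cd3e between 11.81 and 11.97. All of these lay above 8.53, the upper quartile of gene levels. Il2ra, the gate marker, was higher in every IIKO array than in any WT array, by 0.17 ± 0.06 (log2, SE; limma adjusted p = 0.211), and so was Ctla4, by 0.12 ± 0.05 (adjusted p = 0.272). Of all genes, 2.83% were higher in every IIKO array than in any WT array. Of the 9 Treg markers measured, 6 had positive and 3 negative differences. The negative ones were Cd3d (-0.07), Cd3e (-0.03) and Cd3g (-0.06). The part of the Il2ra and Ctla4 shifts in the values below was not tested. Array medians ran from 6.96 to 7.03 and no array stood apart by them. With 4 arrays a group, their number limits the precision, together with the spread of each gene between arrays.

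None of the 28 measured genes passed the test between the WT and IIKO chimeras. The test was limma over all 19937 genes, with a Benjamini-Hochberg adjusted p under 0.05. Over all genes 57 passed, which is 0.286%. The smallest adjusted p of a member was 0.204, for Hif1a. At an unadjusted limma p under 0.05 there were 3 members (10.7% of those measured), Hif1a and Pdk1 with higher and Taldo1 with lower means in IIKO chimeras, against 17.3% of all genes. A share under that background is not a result about these genes. Differences were positive for 20 members and negative for 8, with a median of 0.05 log2 beside -0.04 over all genes. Normalized once more by quantiles, the arrays gave 14 positive and 14 negative. With median centring these counts were 22 and 6, and with cyclic loess normalization 19 and 9. In these bulk samples, fewer cells of a type and less RNA per cell cannot be told apart.

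The confidence intervals bound how large a difference these arrays leave room for. Standard errors ran from 0.05 for Pfkfb4 to 0.20 for Aldoc. The 95% confidence intervals of all 28 members stayed within 0.5 log2 of 0 on either side, and those of 14 stayed within 0.25. These intervals are per gene, not adjusted for their number, and describe the kept probe sets. For Hk1, Ldhb, Pgam1 and Mpc1 the numbered neighbours of that probe set lay on another chromosome, as given below. The largest fold inside any interval was 1.41, for Aldoc, the most variable member. A p that misses the threshold does not show that the levels were alike.

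**Figure D1:**
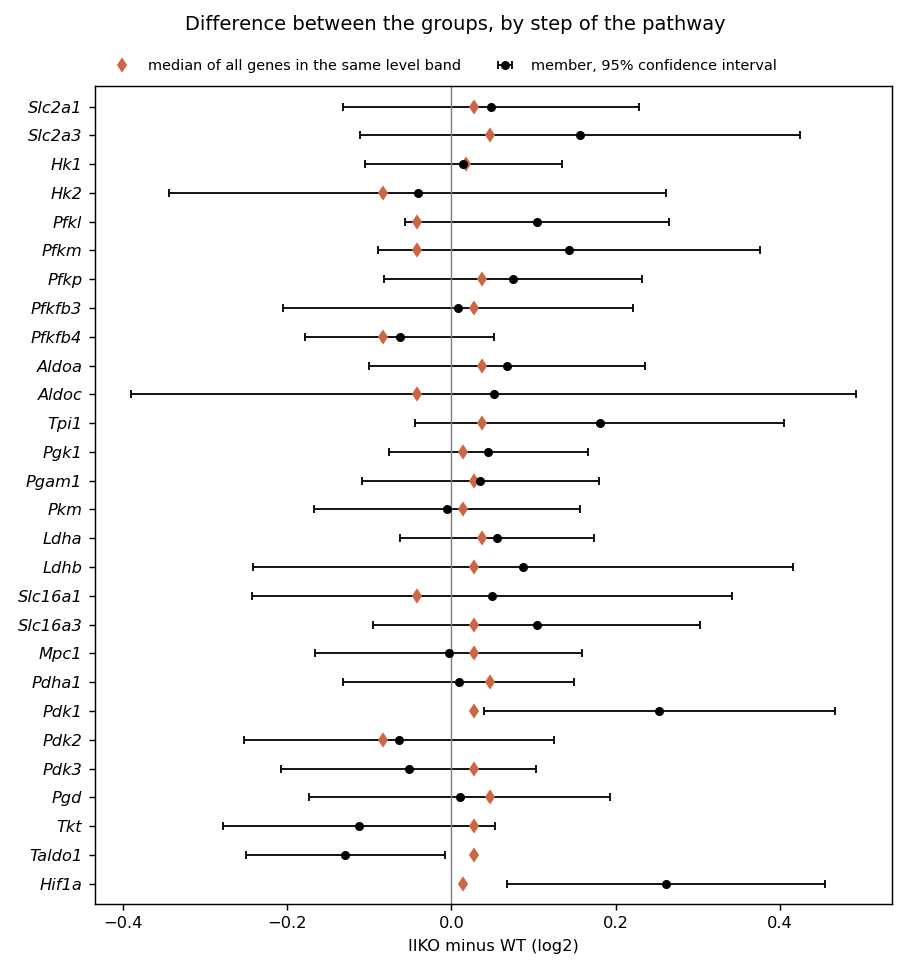
Difference between IIKO and WT chimera Tregs (log2, horizontal axis) for the 28 measured genes, ordered by step of the pathway. Black points with bars are the limma difference with its 95% confidence interval (4 arrays in each group), and orange diamonds are the median difference of all genes in the same band of level, 1 log2 unit wide. The intervals of Hif1a, Pdk1 and Taldo1 do not reach 0.

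The glucose transporter transcripts were present on all arrays. Slc2a1 encodes GLUT1, the transporter that activated T cells place at their surface, and Slc2a3 encodes GLUT3, a transporter of high affinity. Slc2a1 read 8.79, 9.10, 8.93 and 8.92 in WT arrays 1 to 4 and 8.92, 8.87, 9.14 and 8.99 in IIKO arrays 1 to 4. The groups lay over each other, with a difference of 0.05 ± 0.08 (log2, SE; limma adjusted p = 0.781) that turned to -0.002 after the further quantile normalization. Slc2a3 read 9.35, 9.38, 9.78 and 9.55 in the WT arrays and 9.83, 9.85, 9.41 and 9.59 in the IIKO arrays. WT array 3 stood with the upper IIKO arrays and IIKO array 3 with the lower WT arrays, and the difference was 0.16 ± 0.12 (adjusted p = 0.511).

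Hexokinase holds glucose in the cell by phosphorylating it. Hk2 encodes the inducible hexokinase of activated and dividing cells, and Hk1 the widely expressed one. Hk2 read 7.20, 7.06, 6.84 and 6.72 in the WT arrays and 7.28, 6.84, 6.71 and 6.82 in the IIKO arrays, with array 1 the highest within each group. Its difference was -0.04 ± 0.14 (limma adjusted p = 0.894) and turned to 0.02 after cyclic loess normalization. Hk1 had 2 probe sets, and the brighter, kept by the rule, read 12.11 ± 0.06 in WT chimeras and 12.13 ± 0.05 in IIKO chimeras (SD over 4 arrays each).

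The numbered neighbours of the brighter Hk1 probe set lay on another chromosome than the gene. Probe sets on this array are numbered in blocks, and the 10 named probe sets on either side of it (20 of 20) were annotated to genes of chromosome 14, while Hk1 lies on chromosome 10. It was annotated from 1 accession. The second Hk1 probe set had 20 of 20 such neighbours on chromosome 10 and 8 accessions. It read 9.29, 9.53, 9.18 and 9.10 in the WT arrays and 9.47, 9.25, 9.20 and 9.03 in the IIKO arrays. This probe set was highest in WT array 2, where the brighter probe set was at its lowest, 12.04. The groups overlapped in both, and the difference was -0.04 ± 0.11 in the second probe set and 0.01 ± 0.05 in the brighter one.

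Phosphofructokinase 1, the committed step of glycolysis, is built from liver, muscle and platelet type subunits, encoded by Pfkl, Pfkm and Pfkp. All 3 subunit transcripts had positive differences, and 0 of them passed. Pfkl read 7.63, 7.45, 7.40 and 7.55 in the WT arrays and 7.60, 7.74, 7.63 and 7.49 in the IIKO arrays, a difference of 0.10 ± 0.07 (limma adjusted p = 0.464). Pfkm read 7.93, 7.71, 7.71 and 7.53 in the WT arrays and 8.00, 8.04, 7.71 and 7.70 in the IIKO arrays, a difference of 0.14 ± 0.10 (adjusted p = 0.489). Pfkp was at 10.17 ± 0.11 and 10.25 ± 0.08 (SD, n = 4 arrays each; adjusted p = 0.593). For each subunit the ranges of the groups overlapped.

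The bifunctional enzymes that set fructose 2,6-bisphosphate, the activator of phosphofructokinase 1, are encoded by Pfkfb3 and Pfkfb4. Pfkfb3 was at 8.32 ± 0.19 in WT chimeras and 8.33 ± 0.11 in IIKO chimeras (SD over 4 arrays each), and WT array 1, at 8.58, was above all others. Pfkfb4 read 6.01, 6.07, 6.12 and 6.05 in the WT arrays and 5.98, 5.98, 5.97 and 6.06 in the IIKO arrays. Its mean over all arrays, 6.03, was under the lower quartile of all genes (6.04), and whether such a reading is signal was not tested. Both differences were small beside their errors (limma adjusted p = 0.972 for Pfkfb3 and 0.539 for Pfkfb4).

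Aldolase cleaves fructose 1,6-bisphosphate. Aldoa, the main aldolase of muscle and of most other cells, read 10.95, 10.76, 11.02 and 10.85 in the WT arrays and 11.11, 10.94, 10.92 and 10.87 in the IIKO arrays. The difference was 0.07 ± 0.08 (limma adjusted p = 0.658). Aldoa lies on chromosome 7, where 17 of the 57 genes past the threshold lie. It has 3 tested genes between it and Gdpd3, a lysophospholipase D gene that was higher by 6.11 log2 in IIKO chimeras (limma adjusted p = 5.26e-08). Other members also lay near a gene past the threshold, Mpc1 with 5 tested genes between it and 1700010I14Rik and Pgam1 with 6 between it and Pik3ap1. Mpc1 lies on chromosome 17, where 18 of the 57 lie. The probe sets of Mpc1 and Pgam1 had numbered neighbours on other chromosomes than these genes, as given below. The nearness is thus that of the genes, and the place of their probe sets was not tested. Aldoc, the brain type aldolase, was the most variable member, from 7.10 in WT array 2 to 8.16 in IIKO array 2, with a difference of 0.05 ± 0.20 that was -0.11 without WT array 2 and -0.12 without IIKO array 2.

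Of the enzymes of lower glycolysis, Tpi1, Pgk1, Pgam1 and Pkm were measured and 0 of the 4 passed. Tpi1, triosephosphate isomerase, had the largest difference of the group, 0.18 ± 0.10 (limma adjusted p = 0.374). It read 10.64, 10.51, 10.77 and 10.42 in the WT arrays and 10.90, 10.76, 10.89 and 10.52 in the IIKO arrays. IIKO arrays 1 and 3 lay above every WT array, and IIKO array 4 lay among the lower WT arrays. The difference ran from 0.12 without WT array 4 to 0.26 without IIKO array 4 (adjusted p = 0.586 and 0.176).

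Pgk1, phosphoglycerate kinase, makes the first ATP of lower glycolysis and was among the steadiest members. It was at 11.51 ± 0.06 in WT chimeras and 11.56 ± 0.04 in IIKO chimeras (SD over 4 arrays each; limma adjusted p = 0.688). Pgam1, phosphoglycerate mutase, was at 8.75 ± 0.11 and 8.78 ± 0.05 (adjusted p = 0.801). Pkm, the pyruvate kinase gene whose spliced forms M1 and M2 are not separated by 1 value per probe set, read 11.40, 11.25, 11.22 and 11.11 in the WT arrays and 11.26, 11.18, 11.35 and 11.16 in the IIKO arrays. The Pkm difference was -0.01 ± 0.07 (adjusted p = 0.974). A second, dimmer Pkm probe set, with 19 of 20 neighbours on chromosome 5 where Pkm itself lies on chromosome 9, gave -0.04 ± 0.09.

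Lactate dehydrogenase is a tetramer of A and B subunits, with A known for making lactate from pyruvate and B for the reverse. Ldha was tight in the WT group, at 10.63, 10.62, 10.61 and 10.58, and read 10.73, 10.62, 10.72 and 10.60 in the IIKO arrays. Its difference of 0.06 ± 0.05 did not pass (limma adjusted p = 0.603), with IIKO arrays 1 and 3 above every WT array. The kept Ldhb probe set read 8.28, 7.83, 7.82 and 8.22 in the WT arrays and 7.88, 8.08, 8.04 and 8.51 in the IIKO arrays (0.09 ± 0.15, adjusted p = 0.782).

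The kept Ldhb probe set had 17 of 20 neighbours on chromosome 19, while Ldhb lies on chromosome 6. The second probe set had 19 of 20 neighbours on chromosome 6. It read 7.14, 6.99, 6.71 and 7.12 in the WT arrays and 6.73, 7.11, 7.02 and 7.22 in the IIKO arrays, a difference of 0.03 ± 0.12. Both Ldhb probe sets were highest in IIKO array 4 and lowest in WT array 3. The groups overlapped in both.

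Monocarboxylate transporters carry lactate and pyruvate across the plasma membrane. Slc16a1 encodes MCT1 and read 7.44, 7.03, 6.94 and 6.82 in the WT arrays and 7.30, 6.88, 7.07 and 7.17 in the IIKO arrays. Slc16a3 encodes MCT4, the exporter of strongly glycolytic cells, and read 8.46, 8.52, 8.71 and 8.73 in the WT arrays and 8.72, 8.80, 8.81 and 8.49 in the IIKO arrays. For Slc16a1 the difference was 0.05 ± 0.13 and for Slc16a3 0.10 ± 0.09 (limma adjusted p = 0.866 and 0.561). Array 1 was the highest within each group for Slc16a1, as it was for Hk2.

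The switch between lactate and mitochondrial oxidation lies at pyruvate dehydrogenase. Pdha1 encodes its catalytic E1 alpha subunit, and the kinases encoded by Pdk1, Pdk2 and Pdk3 phosphorylate that subunit and turn the complex off. Pdha1 was at 9.82 ± 0.11 in WT chimeras and 9.83 ± 0.02 in IIKO chimeras (SD over 4 arrays each; limma adjusted p = 0.954). Mpc1, a subunit of the carrier that brings pyruvate into mitochondria, was at 8.47 ± 0.13 and 8.47 ± 0.07 (adjusted p = 0.985). The Mpc1 probe set had 20 of 20 neighbours on chromosome 12, while Mpc1 lies on chromosome 17, and it had no other probe set here. Pgam1, of chromosome 19, likewise had 1 probe set, with 19 of 20 neighbours on chromosome 7.

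Pdk1 is the kinase known to be induced by HIF-1 and to keep pyruvate out of mitochondria. It read 8.21, 8.55, 8.52 and 8.51 in WT arrays 1 to 4 and 8.59, 8.74, 8.58 and 8.90 in IIKO arrays 1 to 4. All IIKO arrays lay above all WT arrays, narrowly so for IIKO array 3 against WT array 2. Groups of arrays did not overlap for 2 of the 28 members (7.14%), Pdk1 higher and Taldo1 lower, and for 10.5% of all genes (2.83% higher and 7.69% lower). The difference was 0.25 ± 0.10 (95% confidence interval 0.04 to 0.47, limma adjusted p = 0.232). WT array 1 was the low one. Without it the difference was 0.17 and the unadjusted limma p was 0.0693, and this p was 0.0533 without IIKO array 2, 0.074 without IIKO array 4 and 0.0515 after the further quantile normalization.

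The other kinases had negative differences of a smaller size, which for Pdk2 turned to 0.01 after cyclic loess normalization. Pdk2 read 6.57, 6.55, 6.50 and 6.64 in the WT arrays and 6.61, 6.24, 6.60 and 6.56 in the IIKO arrays, so its lower IIKO mean came from array 2. Without IIKO array 2 its difference of -0.06 was 0.02. Pdk3 read 8.85, 8.77, 8.65 and 8.73 in the WT arrays and 8.84, 8.71, 8.58 and 8.65 in the IIKO arrays (-0.05 ± 0.07, limma adjusted p = 0.718). Each array's kinases were also set against each other. The value of Pdk2 minus Pdk1 went from -1.88 ± 0.18 to -2.20 ± 0.26, and that of Pdk3 minus Pdk1 from 0.30 ± 0.23 to -0.01 ± 0.20 (log2, SD, n = 4 arrays each). The groups of arrays overlapped in both.

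The oxidative and the sugar-exchanging parts of the pentose phosphate pathway were represented by Pgd, Tkt and Taldo1. Pgd, 6-phosphogluconate dehydrogenase, which makes NADPH, read 9.84, 9.50, 9.64 and 9.54 in the WT arrays and 9.71, 9.71, 9.61 and 9.52 in the IIKO arrays (0.01 ± 0.08, limma adjusted p = 0.96). Tkt, transketolase, read 8.65, 8.60, 8.76 and 8.41 in the WT arrays and 8.55, 8.51, 8.42 and 8.49 in the IIKO arrays. The Tkt difference of -0.11 ± 0.07 did not pass (adjusted p = 0.446), and WT array 4 was the lowest of all arrays. It was -0.18 without WT array 4 and -0.06 without WT array 3 (adjusted p = 0.281 and 0.688).

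Taldo1, transaldolase, returns pentose sugars to glycolysis together with transketolase. It read 8.67, 8.69, 8.74 and 8.75 in WT arrays 1 to 4 and 8.52, 8.53, 8.62 and 8.65 in IIKO arrays 1 to 4. Every IIKO array lay below every WT array, narrowly so for IIKO array 4 against WT array 1, and the difference was -0.13 ± 0.05 (95% confidence interval -0.25 to -0.01, limma adjusted p = 0.264). Taldo1 lies on chromosome 7, with 221 tested genes between it and the nearest gene past the threshold. The unadjusted limma p of Taldo1, 0.039, was 0.0962 without IIKO array 1, 0.0985 without IIKO array 2, 0.0525 without WT array 2, 0.0852 without WT array 3 and 0.0856 without WT array 4. It was 0.0516 with arrays centred on their medians and 0.0807 with a trended, robust variance.

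Hif1a encodes the oxygen-regulated subunit of HIF-1, the transcription factor that drives many glycolytic genes and is controlled mainly at the level of protein stability. It read 11.37, 11.31, 11.41 and 11.15 in the WT arrays and 11.63, 11.75, 11.52 and 11.38 in the IIKO arrays. IIKO arrays 1 to 3 lay above every WT array, and IIKO array 4 lay among them. The difference was 0.26 ± 0.09 (95% confidence interval 0.07 to 0.45), or 1.20-fold (limma adjusted p = 0.204). Whichever array was left out, it stayed between 0.20 and 0.32, with adjusted p from 0.117 to 0.369.

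**Figure D2:**
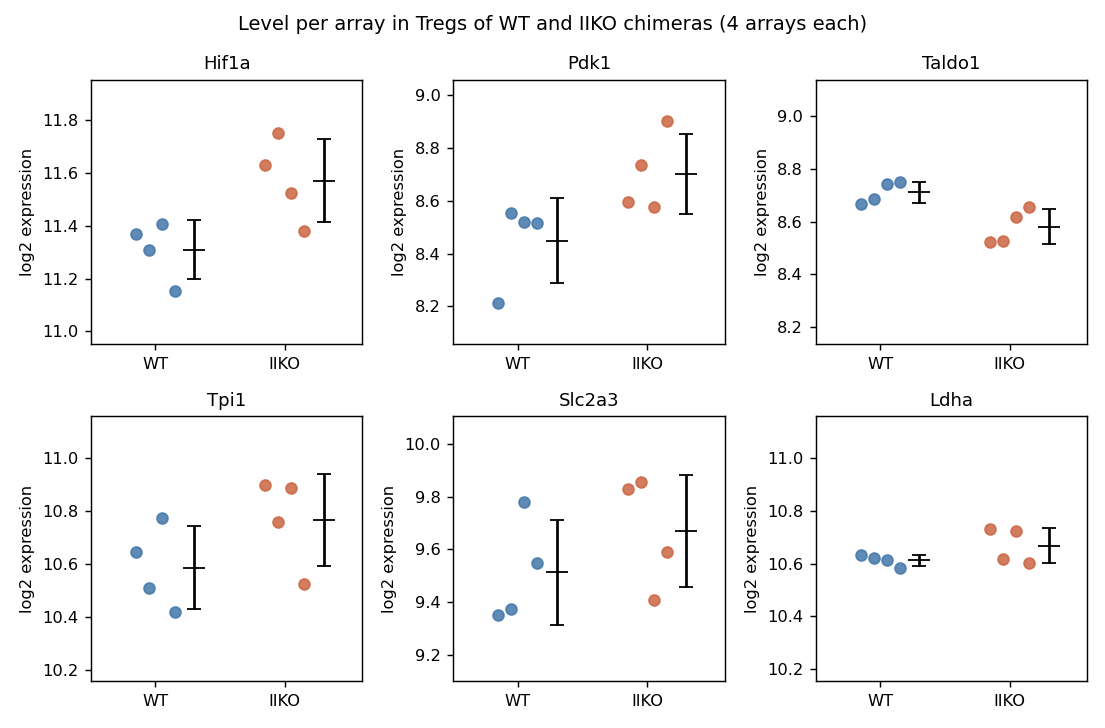
Log2 expression (vertical axis, a span of 1 log2 unit in each panel) of 6 members on each array of WT and IIKO chimera Tregs, with the mean and SD of each group beside the points. Pdk1 and Taldo1 do not overlap between the groups, Hif1a overlaps through IIKO array 4, and Tpi1, Slc2a3 and Ldha overlap.

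The promoters of Hif1a, Pdk1 and Taldo1, the 3 members with the lowest p, are shown because HIF-1 binds a short core, ACGTG or GCGTG, that can be looked for in them. The sequences are the 250 bases before the RefSeq start (GRCm38.p6), all on the plus strand, with matches to either core on either strand in capitals. They cover chr12:73907617-73907866 for Hif1a, chr2:71872974-71873223 for Pdk1 and chr7:141391910-141392159 for Taldo1. A second Pdk1 start, farther downstream, had no match in its 250 bases.
Hif1a: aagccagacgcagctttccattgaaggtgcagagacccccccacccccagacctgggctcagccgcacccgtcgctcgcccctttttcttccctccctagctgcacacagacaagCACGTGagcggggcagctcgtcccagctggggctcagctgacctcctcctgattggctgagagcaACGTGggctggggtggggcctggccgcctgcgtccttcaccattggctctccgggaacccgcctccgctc
Pdk1: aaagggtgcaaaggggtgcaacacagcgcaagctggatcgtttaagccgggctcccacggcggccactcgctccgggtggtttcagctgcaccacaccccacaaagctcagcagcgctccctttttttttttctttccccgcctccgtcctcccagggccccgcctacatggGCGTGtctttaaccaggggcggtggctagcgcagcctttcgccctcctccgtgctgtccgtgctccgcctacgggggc
Taldo1: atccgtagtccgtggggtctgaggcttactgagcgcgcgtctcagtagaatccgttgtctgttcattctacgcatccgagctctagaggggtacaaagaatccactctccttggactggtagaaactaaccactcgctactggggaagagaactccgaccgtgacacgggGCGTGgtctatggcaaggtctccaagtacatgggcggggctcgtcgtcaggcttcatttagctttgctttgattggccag

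The Hif1a promoter held 3 matches, of which a pair overlaps in 1 CACGTG, the E-box letters that contain ACGTG on both strands. CACGTG was in 6 of the members' 41 windows (14.6%) and in 10.6% of the windows of tested genes at a level of 8 or above. Pdk1 had 1 match 78 bases and Taldo1 1 match 80 bases before the start. Such short cores are common. Over windows of 300 bases (250 before to 50 after a start), a match was present in 32 of 41 windows of the members, or 78%. It was present in 51.7% of the windows of all tested genes and in 64.4% of those of genes at a level of 8 or above, where 21 of the 28 members lie. Of the 27 members with a window, 26 had a match in at least 1, among them Ldha with 7 in a window, and Tpi1 had none. Some members had several windows, and the share of all genes with a match in any window was not counted. A match describes these letters only.

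Isoform use was compared within arrays, since the brightness of a probe set depends on its own probes and levels of different genes were not ranked. The difference between 2 isoforms on the same array does not carry that dependence when it is set against the same difference on another array. Of 12 measured pairs, 0 had groups of arrays that did not overlap. The group means of the pairs differed by -0.32 to 0.11 log2. After cyclic loess normalization the sign turned for Hk2 minus Hk1 (0.02), Pfkfb4 minus Pfkfb3 (0.02) and Aldoc minus Aldoa (0.04). It also turned for Slc16a3 minus Slc16a1 (-0.02) and Pdk3 minus Pdk2 (-0.08). The pairs with Pdk1, given above, had the largest differences. That of Pdk3 minus Pdk1, -0.31, was -0.19 without WT array 1, where Pdk1 was low. That of Pdk2 minus Pdk1, -0.32, was -0.22 without IIKO array 2, where Pdk2 was low. The same pair was at -0.24 after the further quantile normalization and at -0.23 after cyclic loess. Slc2a3 minus Slc2a1 went from 0.58 ± 0.24 to 0.69 ± 0.33 (SD, n = 4 arrays each), and ran from 0.27 to 0.98 within the IIKO group alone. Its difference of 0.11 was 0.006 without WT array 2, 0.01 without IIKO array 2, 0.04 without IIKO array 1, 0.20 without WT array 3 and 0.25 without IIKO array 3.

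The steadiest pair in the IIKO group was Pfkp minus Pfkl, at 2.66 ± 0.19 in WT chimeras and 2.63 ± 0.03 in IIKO chimeras (SD over 4 arrays each). Slc16a3 minus Slc16a1, the lactate transporters, differed by 0.05 between the group means, with SDs of 0.39 and 0.28. Aldoc minus Aldoa was at -3.31 ± 0.23 and -3.33 ± 0.44. For the hexokinases and lactate dehydrogenases the pair depends on the probe set. Hk2 minus Hk1 was at -5.16 ± 0.23 and -5.21 ± 0.21 with the kept Hk1 probe set, and at -2.32 ± 0.16 and -2.32 ± 0.15 with the one near genes of chromosome 10. Ldhb minus Ldha was at -2.58 ± 0.25 and -2.54 ± 0.32 with the kept Ldhb probe set, and at -3.62 ± 0.20 and -3.65 ± 0.27 with the other.

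**Figure D3:**
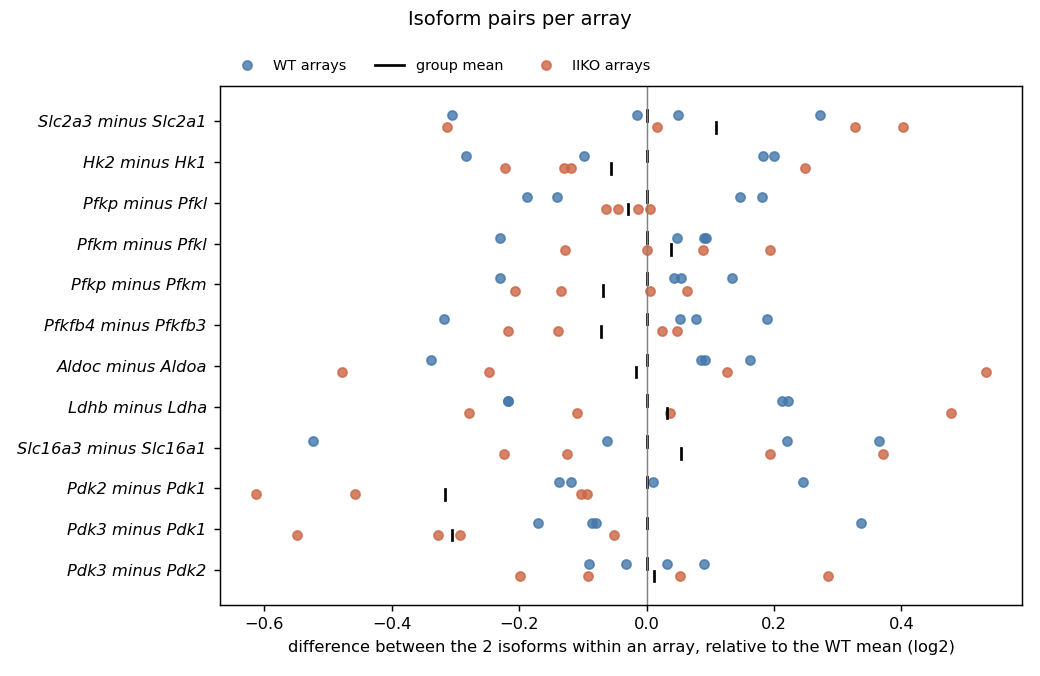
Difference between 2 isoforms of a step within each array (log2, horizontal axis), set to 0 at the mean of the WT arrays, for 12 pairs. Points are arrays (4 WT, 4 IIKO) and black ticks are group means. The groups overlap in every pair shown, and the means of the 2 pairs with Pdk1 lie farthest from 0.

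**Figure D4:**
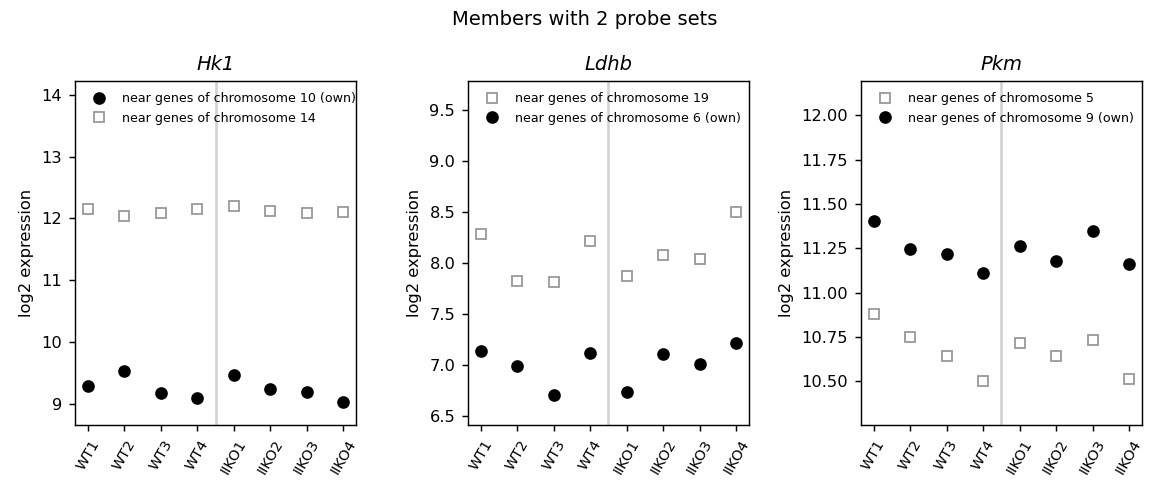
Log2 expression on each array (WT arrays 1 to 4, then IIKO arrays 1 to 4) for both probe sets of Hk1, Ldhb and Pkm. Filled circles mark the probe set whose numbered neighbours lie on the gene's own chromosome and open squares the other. The probe sets of Ldhb and of Pkm go up and down together across arrays, and those of Hk1 do not.

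Genes of like level were used as a further background, since the difference between the groups moved with level over the whole array. Tested genes were placed in bands 1 log2 unit wide by their mean over all arrays. Between 6 and 7, 80.8% of 4684 genes had a negative difference (median -0.08), and between 9 and 10, 34.2% of 2017 did (median 0.05). Members were spread over the bands from 6 to 13, with 10 of them between 8 and 9. Against the median of their own band, 19 members lay above and 9 below, and the median of these deviations was 0.03 log2.

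Most members sat inside the range that holds the central part of their band, from its 10th to its 90th percentile, which 25 of 28 did. A range so made leaves out the lowest 10% and the highest 10% of genes in each band. Hif1a (0.25 above its band median), Pdk1 (0.23 above) and Tpi1 (0.14 above) lay outside the range, all on the upper side. Taldo1 (0.16 below) and Tkt (0.14 below) lay inside it. Pfkm lay 0.19 and Pfkl 0.15 above the median of genes between 7 and 8, larger than their plain differences because that band as a whole lay lower. Hk2, Pdk2 and Pfkfb4 had negative differences, positive ones after cyclic loess normalization, and lay above the median of genes between 6 and 7.

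**Figure D5:**
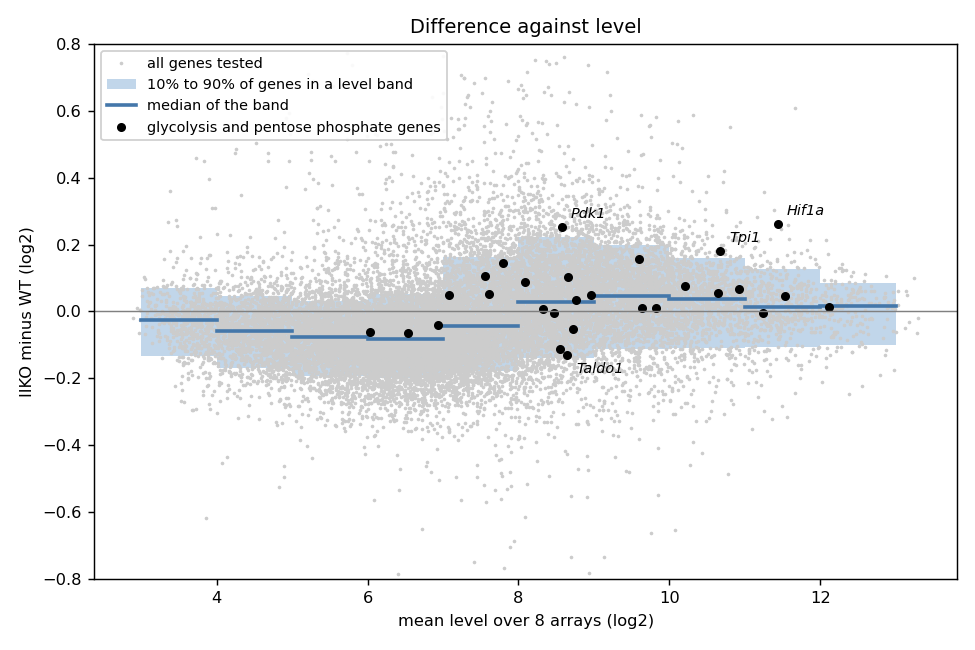
Difference between IIKO and WT chimera Tregs (log2, vertical axis) against the mean level over 8 arrays (log2, horizontal axis). Grey points are all tested genes (47 lie outside the plotted range), blue bars the median and blue boxes the 10% to 90% range of each level band, and black points the 28 members. Hif1a, Pdk1 and Tpi1 lie above the box of their band.

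Further enzymes of the same pathways gave 0 changes past the threshold among 35 measured of 40 listed. By unadjusted limma p, 1 had a higher and 6 a lower mean, which is 20% of the list beside 17.3% of all genes. The list's median was -0.06 log2, beside -0.04 for all genes, and its median deviation from genes of like level was -0.002. Pgls encodes the lactonase between glucose 6-phosphate dehydrogenase and Pgd in the oxidative pentose phosphate branch. It read 8.63, 8.55, 8.54 and 8.53 in the WT arrays and 8.22, 8.39, 8.42 and 8.36 in the IIKO arrays, without overlap (-0.22 ± 0.06, limma adjusted p = 0.164). Rbks, ribokinase, was at 8.45 ± 0.12 and 8.18 ± 0.08 (SD, n = 4 arrays each; adjusted p = 0.16), and Fbp2, a fructose bisphosphatase, differed by -0.16 ± 0.05 (adjusted p = 0.194). These 3 had the smallest p of the list, and each had every IIKO array below every WT array, as 7.69% of all genes did. Fbp2 lay inside the 10% to 90% range of its level band (lower end -0.20), and Pgls and Rbks lay below that of theirs (lower end -0.14).

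Pyruvate oxidation and citric acid cycle genes had 0 of 32 past the threshold and a median of -0.02. At an unadjusted limma p under 0.05, 1 was higher and 2 lower, 9.38% of the list beside 17.3% of all genes. The malate dehydrogenases, cytosolic Mdh1 (-0.20 ± 0.06) and mitochondrial Mdh2 (-0.15 ± 0.05), had lower means in IIKO chimeras (limma adjusted p = 0.196 and 0.221). Dld, the E3 subunit shared by pyruvate dehydrogenase and its relatives, differed by 0.15 ± 0.06 (adjusted p = 0.259). Upstream regulators of glycolysis had 0 of 19 past the threshold and a median of 0.05. Unadjusted, 2 were higher and 1 lower, 15.8% of the list and also under the share of all genes. Irf4, a transcription factor induced by TCR signals, differed by 0.26 ± 0.07, Mycn by -0.22 ± 0.07 and Sirt6, a deacetylase that represses glycolytic genes, by 0.20 ± 0.07 (adjusted p = 0.16, 0.195 and 0.207).

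The HIF pathway and its targets, a list that does not hold Hif1a itself, had 0 of 27 genes past the threshold. Of these 27 genes, 5 are members. At an unadjusted limma p under 0.05, 4 had higher and 0 lower means (background 5.27% higher and 12% lower). This is 14.8% of the list beside 17.3% of all genes. The list's median was 0.05 log2, and its median deviation from genes of like level was 0.03. Pdk1, described above, is 1 of the 4. Arnt2, a dimer partner of HIF subunits on chromosome 7, read 7.54, 7.28, 7.51 and 7.62 in the WT arrays and 7.98, 8.15, 7.68 and 7.65 in the IIKO arrays (0.38 ± 0.12, limma adjusted p = 0.189). Hif1an, the hydroxylase that restrains HIF activity, differed by 0.21 ± 0.07 (adjusted p = 0.201), also without overlap.

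Markers of dividing cells and of other cell types were examined beside these values. Genes of replication and mitosis had 0 of 21 past the threshold, 0 higher and 3 lower at an unadjusted limma p under 0.05 (Birc5, Aurkb and Ccna2; 14.3% of the list beside 17.3% of all genes), and a median of -0.07 log2. Their median deviation from genes of like level was -0.12, and 3 of the 21 lay above their band median. Their mean level ran from 9.60 to 9.92 over WT arrays and from 9.65 to 9.74 over IIKO arrays. NK and CD8 T cell markers had 0 of 10 past the threshold and 2 higher and 3 lower unadjusted, or 50% of the list beside 17.3% of all genes. Of these, Klrk1 differed by 0.45 ± 0.14 without overlap and Gzma by -0.78 ± 0.28 with overlap (limma adjusted p = 0.193 and 0.218). Nkg7 differed by -0.35 ± 0.07 (limma adjusted p = 0.0847) and passed with a trended, robust variance (adjusted p = 0.049). The list's mean level ran from 7.01 to 7.29 in WT and from 7.02 to 7.13 in IIKO arrays, over genes of unlike level. Group means in WT and IIKO chimeras were 11.28 and 10.93 for Nkg7, 9.33 and 8.54 for Gzma, and 5.02 and 5.47 for Klrk1. Klrk1 thus lay under the lower quartile of all genes (6.04), and whether such a reading is signal was not tested.

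Myeloid and dendritic cell markers (0 of 14 past the threshold) had mean levels from 6.34 to 6.57 over WT and from 6.25 to 6.59 over IIKO arrays. B cell markers (0 of 9) ran from 5.79 to 6.01 and from 5.80 to 5.90. Erythroid markers (0 of 5) ran from 7.43 to 7.57 and from 7.22 to 7.52, and thymocyte markers (0 of 7) from 6.71 to 6.79 and from 6.61 to 6.80. For each of these lists the ranges of mean level of the 2 groups overlapped. At an unadjusted limma p under 0.05, Siglech and S100a8 (14.3% of the myeloid and dendritic list) were lower in IIKO chimeras. So were Fcer2a (11.1% of the B cell list) and Slc4a1 (20% of the erythroid list). Cd1d1 (14.3% of the thymocyte list) was higher, beside 17.3% of all genes in both directions. Siglech (lower, as 7.69% of all genes) and Cd1d1 (higher, as 2.83%) had no overlap. The part of such cells in the values of the glycolytic genes was not tested.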

How the data were processed

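The authors deposited log2 expression per probe set for 8 Affymetrix arrays. The submitters' processing notes name affy and RMA, without versions or parameters. RMA removes background, equalizes the distributions of the arrays and combines a set's probes, so single probes and background were not examined. Of 34760 probe sets, the 21640 with 1 gene symbol in the platform annotation were used, giving 19937 genes with the brightest probe set of each. No dim genes were filtered out. Groups come from sample titles. No array repeated another: differences between 2 arrays had an SD of at least 0.185.

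The comparison used limma 3.58.1 (R 4.3.3), with lmFit and eBayes on every gene, IIKO minus WT, two-sided, Benjamini-Hochberg adjusted over all genes. The step was also run on simulated data, with added differences larger in size than that of any member. That run does not bear on differences as small as those described here. Isoform pairs have no test. Chromosomes and promoters are from RefSeq (GRCm38.p6).

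All members are described. Array values were set for members at an unadjusted p under 0.05, and are also given for others to show their spread. From each further list up to 3 genes with the smallest p are named. For the myeloid, B cell, erythroid and thymocyte lists these are only genes at an unadjusted p under 0.05. The nearest gene past the threshold is named for members that lie close to one, and its distance is given for Taldo1. Members and lists were chosen with earlier results of these data known.

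Both groups carry replicate numbers 1 to 4, and the reported comparison did not pair the arrays by them. Deviations of same-numbered arrays correlated at 0.0449, -0.0147, -0.0679 and 0.22. Array medians rose with the number in both groups, from 6.97 to 7.03 in WT and from 6.96 to 7.00 in IIKO chimeras. Whether the numbers mark an order shared by the groups was not tested. The alternatives were another threshold (0.01), blocking on replicate number, 3 further scalings (quantile, median, cyclic loess), the brighter genes only, a trended robust variance, weighted arrays, averaged probe sets, and leaving out each array. Using the probe set on a gene's own chromosome was added after the data were seen.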

Additional observations from a re-analysis of the deposited data

Results flagged for a closer look

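In 56 groups of 4 arrays (28 members, 2 groups each), 4 held an array far from its group by Dixon's gap test at the 95% level, where chance gives about 1 in 20. Aldoc stood at 7.10 in WT array 2, against 7.70 to 7.80 in the other WT arrays. Pdk1 stood at 8.21 in WT array 1, against 8.51 to 8.55, which widens its difference between the groups from 0.17 without that array to 0.25 with it. Pdk2 stood at 6.24 in IIKO array 2, against 6.56 to 6.61. Pfkfb4 stood at 6.06 in IIKO array 4, against 5.97 to 5.98. The 4 readings came from 4 different arrays.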

How the results depend on the processing

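Members past the threshold numbered 0 under every alternative run, while genes past it over the whole array were 57 in the reported comparison, 21 at a threshold of 0.01, 32 to 50 with each array left out and at most 65. With the replicate block, 0 members passed, 4 had an unadjusted limma p under 0.05 (Tpi1 in addition) and 31 genes passed in all. Of the 4 WT arrays, 1 matched the IIKO array of its own number best. Members at an unadjusted p under 0.05 numbered 3, and 1 to 3 with each array left out. Without IIKO array 2 it was 1, Hif1a. Hif1a stayed under 0.05 in every alternative run. Genes of the other lists past the threshold went from 0 to 1 (Nkg7) with a trended, robust variance. For 14 members the sign held under every alternative, and for 14 it did not, and 0 of these passed the threshold under any alternative. The cause was not tested. Normalized once more by quantiles, Slc2a1 was at -0.0021, Hk1 at -0.0042, Pgam1 at -0.013, Pdha1 at -0.027, Pfkfb3 at -0.029 and Pgd at -0.025. With median centring, Pkm was at 0.013 and Mpc1 at 0.015. With cyclic loess, Hk1 was at -0.0047, Hk2 at 0.020, Pdk2 at 0.010, Pdha1 at -0.020, Pfkfb3 at -0.00069, Pfkfb4 at 0.015 and Pgd at -0.019. With the mean of its probe sets, Hk1 was at -0.013. With the probe set of its own chromosome, a choice made after seeing the data, Hk1 was at -0.040. With each array left out, values ran from -0.12 to 0.15 for Aldoc, -0.011 to 0.030 for Hk1, -0.16 to 0.040 for Hk2, -0.040 to 0.17 for Ldhb, -0.057 to 0.044 for Mpc1, -0.044 to 0.037 for Pdha1 and -0.099 to 0.024 for Pdk2. They ran from -0.052 to 0.096 for Pfkfb3, -0.0062 to 0.082 for Pgam1, -0.033 to 0.080 for Pgd, -0.050 to 0.047 for Pkm, -0.030 to 0.18 for Slc16a1 and -0.0047 to 0.10 for Slc2a1. Signal over background could not be examined here.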
